A study of Homo sapiens with 6 samples.

Results

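DNA replication and S-phase genes were followed in SW480 cells, a line from a human colorectal adenocarcinoma, after knockdown of MORC2, an ATPase of the cell nucleus that acts on chromatin. The members were chosen by gene symbol. They are 44 of the 56303 genes in the count table, and they cover origin licensing, the replicative helicase, the DNA polymerases, the sliding clamp and its loader, the single-strand binding complex, Okazaki fragment joining, nucleotide supply, the G1/S switch and histone supply. All 44 had enough reads to be tested. The question was whether their transcripts differed between control and MORC2-depleted cells.

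The shCtrl group carried a nonsilencing short hairpin RNA and is called WT in the labels, and the shMORC2 group carried a hairpin against MORC2 and is called MORC2 knockdown. Both hairpins were delivered by lentivirus, both lines were selected with puromycin, and both grew in RPMI medium with serum and antibiotics, so the controls share the delivery and the selection. Whether both hairpins were in the same vector is not stated. The methods describe stable clonal lines, and each group is therefore a single line with 3 libraries rather than a set of independent knockdowns. The methods speak of 3 replicate experiments for each group, and neither they nor the labels say at which step these were separate, so the p-values measure only the spread between these libraries.

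Each library held 42092664 to 43434425 counts, and mitochondrial genes took 7.04% to 8.90% of them. MORC2 itself was lower in every shMORC2 library, at 46.1, 46.4 and 48.8 CPM (counts scaled to a common library size) in shCtrl and 35.0, 29.3 and 27.2 CPM in shMORC2. The log2 fold change of shMORC2 over shCtrl, called the log2 change in what follows, was -0.63 (SE 0.0952, adjusted p = 0.000216 by edgeR). Exons of MORC2 overlap MORC2-AS1 on the opposite strand over 25.8% of their length, and the strand setting of the counting is not given. The MORC2 value is therefore uncertain, though MORC2-AS1 had 248 counts over all libraries beside 9922 for MORC2. Colorectal epithelial markers were abundant, with a summed level of 20140 to 26179 CPM in shCtrl and 19184 to 26071 CPM in shMORC2, though 2 of the 11, CDX1 and LGALS4, stayed under 1 CPM in every library. The sum was carried by KRT8, KRT18 and KRT19, and KRT20 and CDX2 were called higher in shMORC2, with log2 changes of 0.75 and 0.47. The leukocyte markers PTPRC, CD3E and CD14 stayed under 1 CPM in every library, while CD68, a macrophage marker, was at 29.6, 33.9 and 38.8 CPM in shCtrl against 49.5, 101 and 96.3 CPM in shMORC2. The 4 endothelial markers summed to 15.7 to 19.6 CPM and 20.6 to 22.3 CPM, with 2 of the 4 under 1 CPM in every library and VWF called higher with a log2 change of 0.54, and the 5 fibroblast markers to 10.0 to 12.6 CPM and 12.5 to 12.6 CPM, with 3 of the 5 under 1 CPM. The part of these markers in the results on replication genes was not tested.

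Before each S phase, the origin recognition complex, CDC6 and CDT1 load the MCM2-7 ring onto DNA. At the start of S phase, CDC45 and the GINS complex join the ring and turn it into the active CMG helicase, which unwinds DNA ahead of the polymerases. Many of the genes for these proteins are transcribed in a burst at the G1/S boundary under E2F transcription factors, whose binding site reads like TTTCCCGC, TTTCGCGC, TTTGCCGC or TTTGGCGC on either strand, and proliferating tumour cells such as SW480 express them strongly.

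RefSeq promoter windows, from 250 bases before to 50 bases after each annotated start on GRCh38.p14, were at hand for 37 of the 44 members. An E2F-type word, spelled as any of the 4 forms above on either strand, was found in 1 or more windows of 18 of the 37 (48.6%), against 3.99% of all 27305 genes counted the same way and 3.31% of all 35116 single windows. Words on opposite strands can overlap, as they do in MCM6. Among the 37, a word was present in 5 of the 11 members called higher in shMORC2, 2 of the 4 called lower and 11 of the 22 not called. The CCAAT word (CCAAT, either strand) was in 21 of the 37 (56.8%) and in 39.7% of all genes, and the CHR-type word of mitotic promoters (TTTGAA, either strand) in 1 of the 37 (2.70%), RRM1, and in 18.2% of all genes. These are descriptions of letters in a window, with no test. The stretches below end 1 base before the RefSeq start and are shown because they carry the shared word in members that were called higher (GINS2, TYMS), lower (CDT1, POLE) or not called (PCNA, MCM6). Each is written 5′ to 3′ on the strand of its gene, with the E2F-type word in capitals. They lie at chr16:85688955-85689034 (minus strand, GINS2), chr18:657573-657652 (plus strand, TYMS), chr16:88803709-88803788 (plus strand, CDT1), chr12:132687343-132687422 (minus strand, POLE), chr20:5126623-5126702 (minus strand, PCNA) and chr2:135876444-135876603 (minus strand, MCM6).
GINS2: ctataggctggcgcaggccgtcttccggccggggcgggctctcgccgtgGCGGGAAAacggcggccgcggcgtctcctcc
TYMS: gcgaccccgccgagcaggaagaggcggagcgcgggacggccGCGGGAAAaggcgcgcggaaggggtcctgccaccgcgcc
CDT1: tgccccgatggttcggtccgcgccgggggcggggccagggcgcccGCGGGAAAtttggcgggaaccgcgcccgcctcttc
POLE: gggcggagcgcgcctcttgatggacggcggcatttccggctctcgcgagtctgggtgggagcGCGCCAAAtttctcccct
PCNA: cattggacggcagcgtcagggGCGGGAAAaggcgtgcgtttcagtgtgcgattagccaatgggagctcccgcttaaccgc
MCM6: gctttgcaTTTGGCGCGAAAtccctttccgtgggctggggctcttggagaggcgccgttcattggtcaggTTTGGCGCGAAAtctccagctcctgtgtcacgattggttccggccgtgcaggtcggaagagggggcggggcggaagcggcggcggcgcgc
The word began 31 bases before the start in GINS2, 39 in TYMS, 35 in CDT1, 18 in POLE and 59 in PCNA, and MCM6 held an overlapping pair of words at 152 and again at 90 bases before its start.

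Of the 44 members, 13 rose and 6 fell in shMORC2 (edgeR quasi-likelihood test, adjusted p under 0.05), and 25 did not pass the test. That is 29.5% of the members higher and 13.6% lower, beside 19.9% of all 21005 tested genes higher and 19.6% lower. In this fit the members that rose thus made up a larger share than in the table as a whole, and those that fell a smaller share. The count of members that rose depended on shCtrl replicate 2, and was 6 without it. The fitted log2 changes ran from -0.42 to 0.80, with a median of 0.13, beside -0.01 over all genes. The members' median was 0.039 without shCtrl replicate 2 and 0.20 without shCtrl replicate 1. All 3 shMORC2 libraries lay above all 3 shCtrl libraries for 11 of the 44 members and below them for 8, while 25.1% of all genes did so in each direction. By this measure the members above were close to the share of all genes, and those below were fewer. In bulk RNA, fewer cells in S phase and less RNA per cell cannot be told apart, and this holds for every level below.

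A fit with the replicate number as a block takes same-numbered libraries as pairs, which the values bore out clearly for number 1 only. It called 29 members, 19 higher and 10 lower, beside 24.4% of all genes higher and 24.5% lower. The 29 held all 19 of the unblocked calls. The 10 added were MCM6, PRIM2, PCNA, RFC4, CCNE2 and CHAF1A, higher, and MCM2, MCM7, PRIM1 and RFC1, lower. Within pairs of the same number, 22 of 44 members (50%) were higher in shMORC2 in all 3 pairs and 12 (27.3%) lower in all 3, beside 33.6% and 34.4% of all genes. Single libraries moved the counts in unblocked fits. Without shCtrl replicate 2, 6 rather than 13 members were called higher. Members called lower numbered 3 without shCtrl replicate 1, 1 without shCtrl replicate 3, 1 without shMORC2 replicate 2 and 2 without shMORC2 replicate 3. Over the whole table, 6428, 7898, 6707, 6553 and 6268 genes were called in these fits, in the same order. With all libraries, 8301 were called. The 7 members called in all 6 fits with a library left out were ORC6, GINS1, GINS4, RFC2, RPA3, RRM2 and SLBP. The share of all genes called in all 6 was not counted, so these 7 have no background to be set against. GINS4 is among the uncertain values named next. Exons of 19 members share bases with another gene, 16 of them with a gene on the opposite strand, and the 4 with at least 10% of their exon length shared with a single gene (GINS3, GINS4, TYMS and CCNE2) are marked as uncertain where they are described. The other 15, MCM2, MCM7, GINS2, PRIM1, POLD1, POLD3, RFC4, RFC5, RPA1, RPA3, FEN1, LIG1, RRM1, CHAF1A and CHAF1B, share under 10% with any single gene, and their values carry the same uncertainty.

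**Figure D1:**
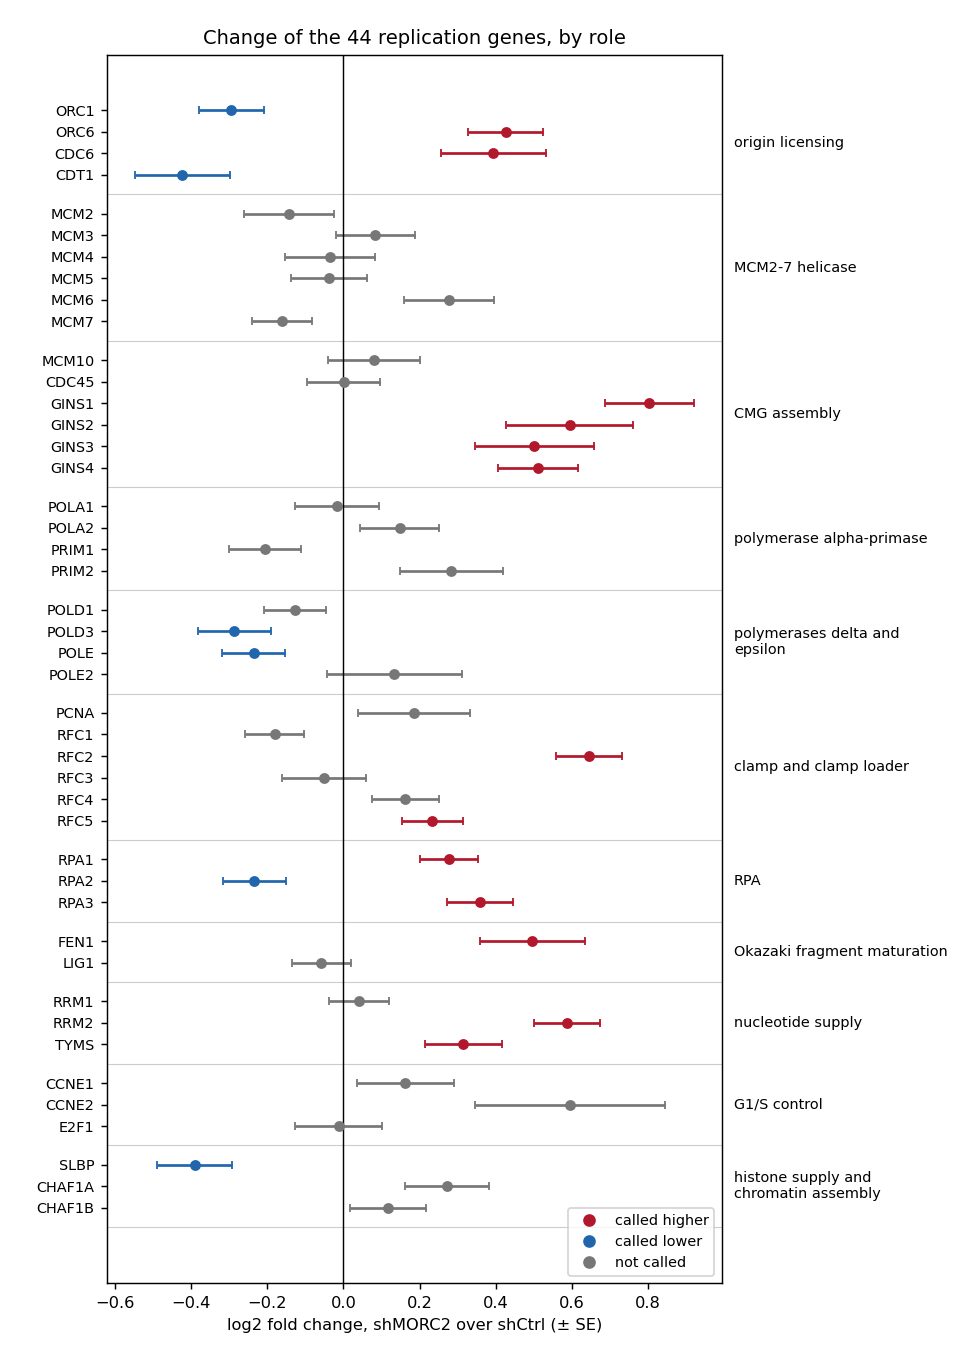
Fitted log2 fold change of shMORC2 over shCtrl for the 44 members, grouped by role, with bars of 1 standard error and colours for the call at an adjusted p under 0.05. GINS1, RFC2, GINS2, CCNE2 and RRM2 lie farthest to the right and CDT1 and SLBP farthest to the left. The 6 MCM2-7 subunits, none of them called, lie between -0.16 and 0.28. MCM6 at 0.28 is level with RPA1, which was called higher.

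All 4 licensing members passed the test, 2 in each direction, beside 19.9% of all genes higher and 19.6% lower. ORC6, a subunit of the origin recognition complex, stood at 31.6, 27.1 and 27.1 CPM in shCtrl against 43.3, 35.6 and 36.3 CPM in shMORC2. Every shMORC2 library was above every shCtrl library, and ORC6 (chromosome 16, 46689643 to 46698394, plus strand, GRCh38) rose by a log2 change of 0.43 (SE 0.0980, adjusted p = 0.00395 by edgeR). CDC6, the ATPase that brings the MCM ring to the origin, was at 32.9, 25.2 and 22.8 CPM in shCtrl against 41.5, 29.8 and 35.2 CPM in shMORC2. Its groups overlapped, since shCtrl replicate 1 was above shMORC2 replicate 2, and the log2 change was 0.39 (SE 0.137, adjusted p = 0.0356 by edgeR). ORC1, the ATPase subunit of the origin recognition complex, was lower in every shMORC2 library, at 18.6, 18.6 and 19.4 CPM against 15.7, 15.3 and 15.0 CPM, with a log2 change of -0.29 (SE 0.0857, adjusted p = 0.0151 by edgeR). CDT1, the loader that is destroyed once S phase begins, was at 28.9, 39.0 and 41.6 CPM in shCtrl against 25.2, 25.9 and 30.4 CPM in shMORC2. The groups overlapped, since shCtrl replicate 1 was below shMORC2 replicate 3, and the log2 change of CDT1 was -0.42 (SE 0.124, adjusted p = 0.0156 by edgeR). Only the ORC6 call held in every fit with a library left out. The edgeR adjusted p of CDC6 rose to 0.126, 0.143, 0.108 and 0.0873 without shCtrl replicates 2 and 3 and shMORC2 replicates 1 and 3, that of ORC1 to 0.0737, 0.0516 and 0.0585 without shCtrl replicate 3 and shMORC2 replicates 2 and 3, and that of CDT1 to 0.0673, 0.0809 and 0.0695 without shCtrl replicates 2 and 3 and shMORC2 replicate 2. CDC6 also missed the threshold without TMM scaling (0.0572) and with limma on log2(RPKM + 1) (0.119).

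None of the 6 subunits of the MCM2-7 ring, the motor of the helicase, passed the test in the unblocked edgeR fit. The largest fitted change was that of MCM6, at 47.9, 34.5 and 38.4 CPM in shCtrl against 55.5, 44.4 and 46.6 CPM in shMORC2. Each shMORC2 library of MCM6 was above the shCtrl library of its own number, and shCtrl replicate 1 lay above shMORC2 replicates 2 and 3. Its log2 change was 0.28 (SE 0.118, adjusted p = 0.0772 by edgeR), the adjusted p was 0.000694 with the replicate block and 0.00514 without shCtrl replicate 1, and it was 0.0166 with no filter on low counts. MCM2 had a log2 change of -0.14 (SE 0.118) and MCM7 of -0.16 (SE 0.0789), with adjusted p-values by edgeR of 0.36 and 0.12 that went to 0.0411 and 0.0215 with the block. All 3 shMORC2 libraries of MCM7, at 150.2, 139 and 146 CPM, lay below the shCtrl libraries at 177, 151 and 159 CPM. MCM3, MCM4 and MCM5 had log2 changes of 0.08, -0.03 and -0.04, with standard errors of 0.0988 to 0.118, and their groups overlapped. Summed over the ring, the level was 996, 781 and 842 CPM in shCtrl against 959, 765 and 863 CPM in shMORC2.

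Per exon length, the ring subunits were not level with one another. The deposited RPKM (reads scaled by exon length and library size) in shCtrl was highest for MCM3, at 85.2 ± 12.2 (SD, n = 3), followed by MCM7 at 37.2 ± 3.71, MCM2 at 33.6 ± 5.55, MCM4 at 20.4 ± 3.67, MCM6 at 9.82 ± 1.85 and MCM5 at 7.90 ± 0.923. The highest was 10.8 times the lowest. The SDs of MCM7 and MCM2 and those of MCM6 and MCM5 overlapped in shCtrl, and within each of the 6 libraries MCM7 was above MCM2 and MCM6 above MCM5. In shMORC2 the order was the same, from MCM3 at 89.8 ± 13.0 RPKM to MCM5 at 7.65 ± 0.994 RPKM.

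The GINS complex (GINS1, GINS2, GINS3 and GINS4), which bridges the MCM ring and CDC45, rose in all 4 of its subunits. Of all genes, 19.9% were called higher. In CPM every shMORC2 library lay above every shCtrl library for each subunit, as for 25.1% of all genes. In deposited RPKM the groups of GINS2 and GINS3 overlapped. There shCtrl replicate 1, at 4.41 and 1.29 RPKM, was above shMORC2 replicate 2, at 4.38 and 1.25 RPKM. GINS1 (chromosome 20, 25407727 to 25452628, plus strand, GRCh38) was at 12.3, 9.41 and 11.7 CPM in shCtrl against 21.6, 18.2 and 18.4 CPM in shMORC2. This was the largest change among the 44 members, with a log2 change of 0.80 (SE 0.117, adjusted p = 0.000156 by edgeR), or 1.75-fold. GINS2 was at 14.1, 8.32 and 8.80 CPM in shCtrl against 17.5, 14.6 and 15.1 CPM in shMORC2, with a log2 change of 0.59 (SE 0.167, adjusted p = 0.0125 by edgeR). Its shCtrl libraries were spread more widely than its shMORC2 libraries with replicate 1 the high one. GINS4 was at 14.8, 11.5 and 12.6 CPM in shCtrl against 18.8, 18.7 and 18 CPM in shMORC2, with a log2 change of 0.51 (SE 0.105, adjusted p = 0.00188 by edgeR). GINS3, the least abundant subunit per exon length, was at 6.43, 4.35 and 5.30 CPM in shCtrl against 8.50, 6.51 and 7.77 CPM in shMORC2, with a log2 change of 0.50 (SE 0.155, adjusted p = 0.0208 by edgeR). Exons of GINS4 and GINS3 overlap antisense genes, over 21.2% and 10.9% of their exon length, and with the strand setting of the counting not given these values are uncertain. The GINS2 call was lost without shCtrl replicate 2 or 3 (adjusted p = 0.0662 and 0.0537 by edgeR), and the GINS3 call without shCtrl replicates 2 or 3 or shMORC2 replicates 1 or 3 (0.0961, 0.0547, 0.0543 and 0.0684) and with limma on log2(RPKM + 1) (0.0756).

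**Figure D2:**
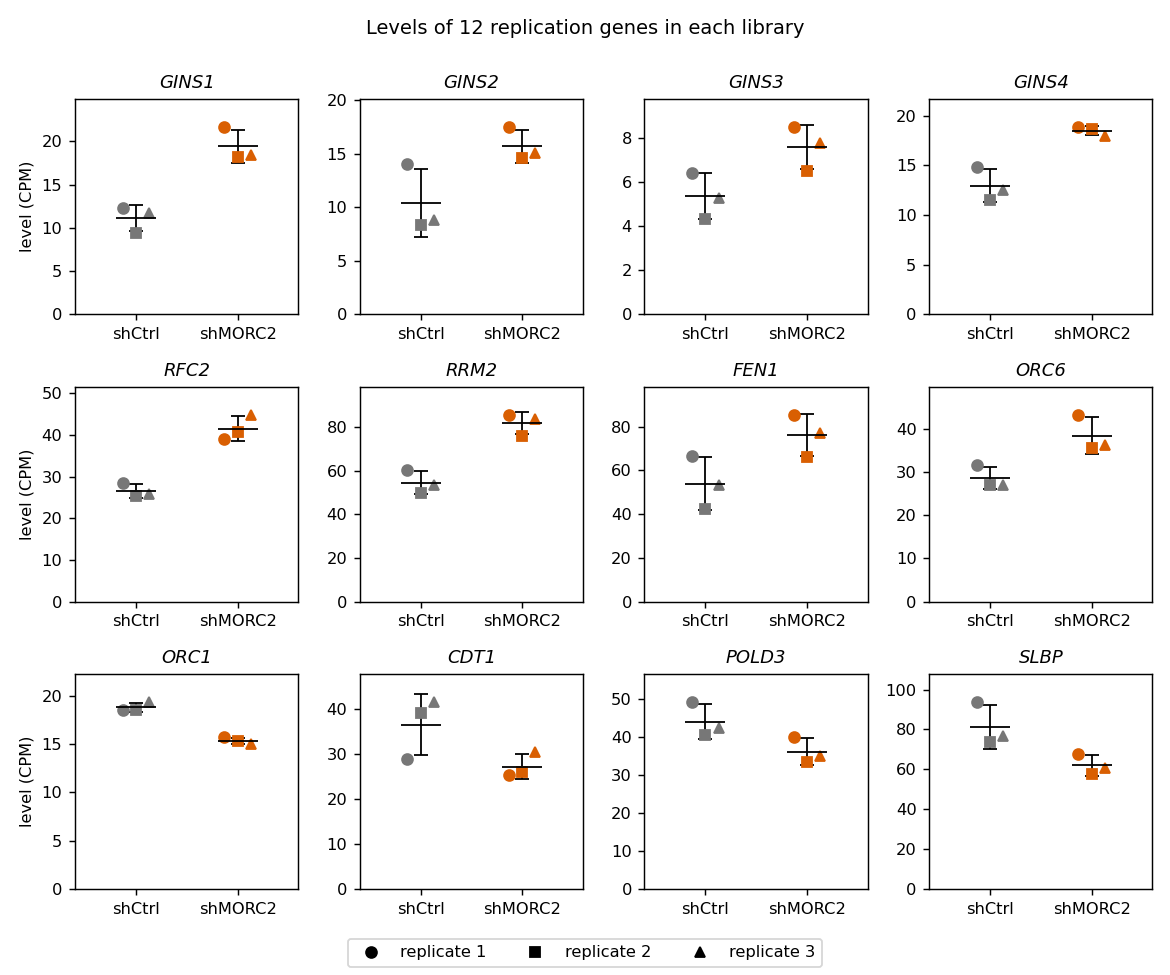
Level in CPM, on an axis from 0, of 12 members in each shCtrl (grey) and shMORC2 (orange) library, with the marker shape giving the replicate number and the bar and whiskers the mean and SD of 3. The 4 GINS subunits, RFC2, RRM2 and ORC6 are above all shCtrl libraries in all shMORC2 libraries, FEN1 and CDT1 overlap, and ORC1, POLD3 and SLBP are below.

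The remaining helicase members did not pass the test. CDC45, the third part of the CMG helicase, was at 38.6 ± 3.51 CPM in shCtrl against 38.6 ± 4.09 CPM in shMORC2 (SD, n = 3), and its log2 change of 0.00 had an SE of 0.0970. MCM10, which helps to activate the CMG helicase, had a log2 change of 0.08 (SE 0.122, adjusted p = 0.632 by edgeR). Put beside the ring, the summed CPM of the 4 GINS subunits was 4.78%, 4.30% and 4.55% of the summed CPM of MCM2-7 in shCtrl and 6.92%, 7.57% and 6.87% in shMORC2. The shares did not overlap between the groups, but they restate the GINS changes given above and add no separate support. GINS3 and GINS4, whose values are uncertain, are part of the sum. The difference between GINS and MCM subunits was not tested itself. Per exon length the GINS subunits were the least abundant of the helicase members in shCtrl, at 1.05 ± 0.221 to 3.20 ± 1.05 RPKM (SD, n = 3), with CDC45 at 13.6 ± 1.27 RPKM and MCM10 at 4.28 ± 0.468 RPKM. In shMORC2, GINS2 at 4.80 ± 0.582 RPKM and GINS1 at 4.76 ± 0.580 RPKM had means above that of MCM10 at 4.51 ± 0.948 RPKM.

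**Figure D3:**
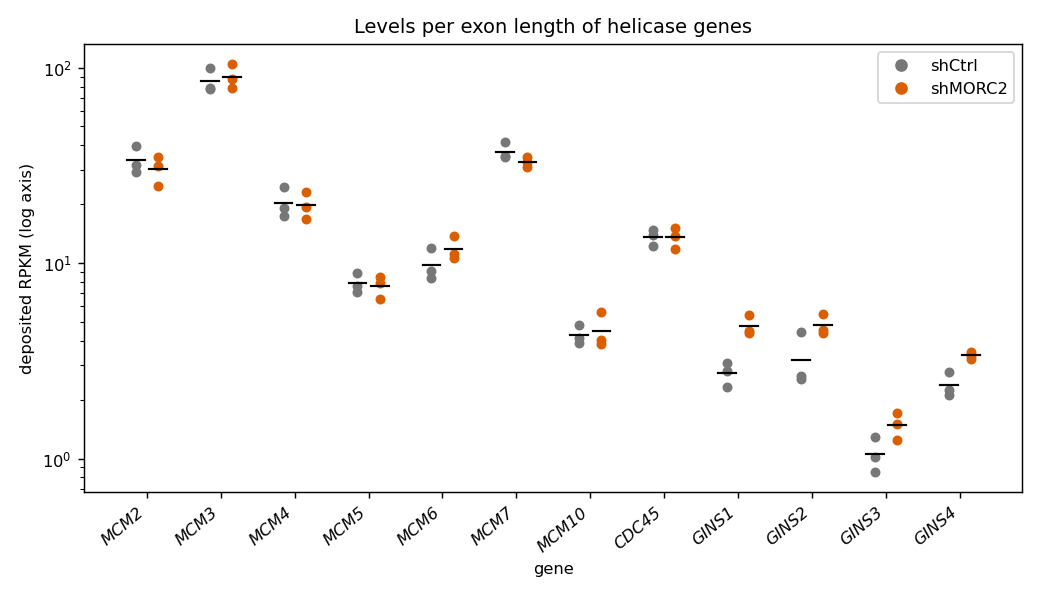
Deposited RPKM, on a log axis, of the helicase members in the 3 shCtrl (grey) and 3 shMORC2 (orange) libraries, with a bar at each group's mean. MCM3 is the highest at 85.2 RPKM in shCtrl and GINS3 the lowest at 1.05 RPKM, and the groups separate for GINS1 and GINS4 and overlap for GINS2, GINS3 and the MCM subunits on this scale.

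Of the 8 DNA polymerase members, 2 fell and none rose in the unblocked fit, beside 19.6% of all genes lower and 19.9% higher. POLD3, an accessory subunit of polymerase delta, which copies the lagging strand, was at 49.1, 40.5 and 42.2 CPM in shCtrl against 39.9, 33.2 and 34.9 CPM in shMORC2. All of its shMORC2 libraries were below all shCtrl libraries, with a log2 change of -0.29 (SE 0.0965, adjusted p = 0.0302 by edgeR). POLE, the catalytic subunit of the leading-strand polymerase epsilon, was at 75.1, 64.8 and 65.3 CPM in shCtrl against 59.9, 54.4 and 59.8 CPM in shMORC2, with a log2 change of -0.24 (SE 0.0831, adjusted p = 0.0370 by edgeR). Both calls were lost with limma on log2(RPKM + 1), at an adjusted p of 0.0786 and 0.0995, and in 4 of the 6 fits with a library left out. Without shCtrl replicates 1 and 3 and shMORC2 replicates 2 and 3 the edgeR adjusted p of POLD3 was 0.117, 0.0529, 0.142 and 0.114 and that of POLE 0.147, 0.0580, 0.159 and 0.0756. POLD1, the catalytic subunit of polymerase delta, had a log2 change of -0.13 (SE 0.0818), and POLE2, the second subunit of polymerase epsilon, one of 0.13 (SE 0.177).

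In the polymerase alpha-primase complex, which lays down the primers, 0 of 4 members passed the unblocked edgeR test, and the small and large primase subunits had fitted changes of opposite sign. PRIM2, the large subunit, had the largest fitted change, at 7.41, 7.05 and 9.26 CPM in shCtrl against 8.66, 9.20 and 11 CPM in shMORC2, with overlapping groups and a log2 change of 0.28 (SE 0.135, adjusted p = 0.112 by edgeR). PRIM1, the small subunit that makes the primer, was at 18.3, 16.6 and 17.9 CPM in shCtrl against 16.5, 14.3 and 14.9 CPM in shMORC2, with every shMORC2 library below every shCtrl library and a log2 change of -0.21 (SE 0.0948, adjusted p = 0.101 by edgeR). With the replicate block the adjusted p was 0.0252 for PRIM2 and 0.0437 for PRIM1, without shCtrl replicate 3 it was 0.0413 for PRIM2, and without shMORC2 replicate 1 it was 0.0473 for PRIM1. POLA1, the catalytic subunit of polymerase alpha, and POLA2 had log2 changes of -0.02 (SE 0.11) and 0.15 (SE 0.103).

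Among the sliding clamp and the subunits of its loader, RFC2 and RFC5 rose, beside 19.9% of all genes called higher. The larger fitted change was that of RFC2. RFC2 (chromosome 7, 74231499 to 74254458, minus strand, GRCh38), a small subunit of the loader that is also part of its checkpoint forms, was at 28.5, 25.4 and 25.8 CPM in shCtrl against 39.1, 40.7 and 44.9 CPM in shMORC2. The groups stood well apart, with a log2 change of 0.65 (SE 0.0858, adjusted p = 7.71e-05 by edgeR), or 1.56-fold. RFC5, another small subunit, was at 21.5, 20.4 and 20.8 CPM in shCtrl against 24.5, 24.7 and 24.5 CPM in shMORC2, a small change with a narrow spread, at a log2 change of 0.23 (SE 0.0797, adjusted p = 0.0323 by edgeR). The RFC5 call was lost with no filter on low counts (0.0937) and without shCtrl replicates 2 or 3 or shMORC2 replicates 2 or 3 (adjusted p = 0.0954, 0.0962, 0.0859 and 0.0683 by edgeR). The other 3 loader subunits did not pass: RFC1, the large subunit, had a log2 change of -0.18 (SE 0.0777), RFC3 of -0.05 (SE 0.111) and RFC4 of 0.16 (SE 0.0887). PCNA, the clamp itself, was at 74.0, 46.5 and 55.2 CPM in shCtrl against 78.5, 57.5 and 63.9 CPM in shMORC2. Each shMORC2 library of PCNA was above the shCtrl library of the same number although the groups overlapped widely, and the edgeR adjusted p of its log2 change of 0.19 (SE 0.147) was 0.341 without and 0.0110 with the replicate block, and 0.0175 without shCtrl replicate 1. With the block the adjusted p was 0.0138 for RFC1 and 0.0457 for RFC4, and RFC1 was also called without shMORC2 replicate 1 (0.0430).

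The 3 subunits of RPA, the complex that coats single-stranded DNA, all passed the test, and not in the same direction. Of all genes, 19.9% were called higher and 19.6% lower. RPA3, the smallest subunit, was at 17.9, 15.9 and 17.1 CPM in shCtrl against 20.9, 22.1 and 22.3 CPM in shMORC2, with a log2 change of 0.36 (SE 0.0875, adjusted p = 0.00561 by edgeR). RPA1, the main DNA-binding subunit, was at 85.1, 73.0 and 78.3 CPM in shCtrl against 95.3, 95 and 96.3 CPM in shMORC2, with a log2 change of 0.28 (SE 0.0770, adjusted p = 0.0116 by edgeR). RPA2, the subunit that is phosphorylated in replication stress, was at 35.6, 30.9 and 32.9 CPM in shCtrl against 28.0, 27.3 and 29.2 CPM in shMORC2, with a log2 change of -0.23 (SE 0.0830, adjusted p = 0.0380 by edgeR). The groups did not overlap for any of the 3, while 25.1% of all genes were apart in each direction. The RPA1 call was lost without shCtrl replicate 2 (adjusted p = 0.0598 by edgeR). The RPA2 call was lost with no filter on low counts (0.0650) and in all single-library omissions except that of shCtrl replicate 2, at 0.135 and 0.0958 without shCtrl replicates 1 and 3 and 0.0581, 0.128 and 0.0661 without shMORC2 replicates 1, 2 and 3.

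For Okazaki fragment joining, FEN1 rose and LIG1 did not pass the test. FEN1, the nuclease that trims the flap of each fragment, was at 66.4, 42.3 and 53.4 CPM in shCtrl against 85.5, 65.9 and 77.1 CPM in shMORC2. The groups met, since shCtrl replicate 1 was just above shMORC2 replicate 2, and within each replicate number FEN1 was higher in shMORC2. The log2 change was 0.50 (SE 0.137, adjusted p = 0.0115 by edgeR), which went to 0.0535 without shCtrl replicate 2, and limma on log2(RPKM + 1) gave 0.0506. LIG1, the ligase that seals the nick, was at 80.8 ± 5.86 CPM in shCtrl against 77.6 ± 2.71 CPM in shMORC2 (SD, n = 3), with a log2 change of -0.06 (SE 0.0778).

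Of the 3 nucleotide supply members, RRM2 and TYMS rose, beside 19.9% of all genes called higher. RRM2 (chromosome 2, 10122328 to 10131419, plus strand, GRCh38), the S-phase subunit of ribonucleotide reductase, was at 60.0, 49.7 and 53.5 CPM in shCtrl against 85.6, 76.0 and 83.7 CPM in shMORC2. All shMORC2 libraries were well above all shCtrl libraries, with a log2 change of 0.59 (SE 0.0870, adjusted p = 0.000178 by edgeR), or 1.5-fold. RRM1, the large subunit of the same enzyme, had a log2 change of 0.04 (SE 0.0797, adjusted p = 0.713 by edgeR). TYMS, which makes thymidylate and is the target of fluoropyrimidine drugs, was at 81.6, 63.7 and 71.4 CPM in shCtrl against 100.4, 82.8 and 86.5 CPM in shMORC2, with a log2 change of 0.32 (SE 0.101, adjusted p = 0.0238 by edgeR). Its exons overlap those of ENOSF1 on the opposite strand over 18.8% of their length, so its value is uncertain. The TYMS call was lost without shCtrl replicates 2 or 3 or shMORC2 replicate 1 (adjusted p = 0.116, 0.0688 and 0.0697 by edgeR) and with limma on log2(RPKM + 1) (0.0754).

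None of the 3 G1/S control members passed the unblocked edgeR test. CCNE2, an E-type cyclin that activates CDK2 at the start of S phase, had the lowest count of any member in a single library, 115, and stood at 4.47, 3.38 and 2.80 CPM in shCtrl against 7.85, 3.68 and 4.56 CPM in shMORC2. The shMORC2 libraries were spread widely and overlapped the controls, and the log2 change of 0.59 had an SE of 0.250 (adjusted p = 0.0747 by edgeR). The adjusted p was 0.00203 with the replicate block, 0.00125 with no filter on low counts, and 0.0211 and 0.0277 without shCtrl replicate 1 and shMORC2 replicate 2. CCNE2 shares 37.0% of its exon length with INTS8 on the opposite strand, so this value is uncertain as well. CCNE1, the other E-type cyclin, had a log2 change of 0.16 (SE 0.127), and E2F1, the activator of the G1/S burst, was at 6.78 ± 0.437 CPM in shCtrl against 6.72 ± 0.204 CPM in shMORC2 (SD, n = 3), with a log2 change of -0.01 (SE 0.115).

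SLBP, which binds the stem-loop of replication-dependent histone transcripts and is needed for their processing, fell in shMORC2. SLBP (chromosome 4, 1692800 to 1712555, minus strand, GRCh38) was at 93.8, 73.6 and 76.6 CPM in shCtrl against 67.9, 57.4 and 60.7 CPM in shMORC2, with no overlap. The log2 change was -0.39 (SE 0.0996, adjusted p = 0.00714 by edgeR). Histone genes were taken by symbols starting HIST1H to HIST4H and were not sorted further. Of the 46 tested, 23 fell and 1 rose, beside 19.6% of all genes lower and 19.9% higher. The summed level of all genes with such symbols was 151 ± 0.967 CPM in shCtrl against 109 ± 6.10 CPM in shMORC2 (SD, n = 3). Transcripts without a poly(A) tail would be missed in these polyadenylated libraries, and a link to the SLBP change was not tested. CHAF1A and CHAF1B, subunits of the chaperone that places new histones behind the fork, did not pass the unblocked edgeR test. CHAF1A was at 110.8, 87.7 and 97.4 CPM in shCtrl against 132, 99.6 and 125 CPM in shMORC2, with a log2 change of 0.27 (SE 0.11, adjusted p = 0.0649 by edgeR), and CHAF1B had one of 0.12 (SE 0.101). Within each replicate number CHAF1A was higher in shMORC2, and it was called with the replicate block (adjusted p = 0.000400 by edgeR), with no filter on low counts (0.0105), by DESeq2 (adjusted p = 0.0474), and without shCtrl replicate 1 or shMORC2 replicate 2 (0.0161 and 0.0187).

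The members also moved with the replicate number, across both groups. An edgeR test of the replicate terms in the blocked fit called 16 of the 44 members, beside 6.45% of all genes, and 15 of the 44 were called with replicate 1 higher, beside 2.33% of all genes. Replicate 1 was the highest library in both groups for 31 of the 44 members (70.5%), beside 18.8% of all genes. The median of log2 CPM in replicate 1 minus the mean of replicates 2 and 3 was 0.16 over the members and 0.00 over all genes. The called members were CDC6, MCM2, MCM3, MCM4, MCM5, MCM6, MCM10, GINS2, POLA1, PCNA, FEN1, TYMS, CCNE2, SLBP and CHAF1A, with replicate 1 higher, and CDT1. PCNA, the clamp, had a shift of 0.46 (adjusted p = 5.88e-05 by edgeR), which exceeded its fitted change between the groups of 0.19, and MCM4 had a shift of 0.34 (adjusted p = 0.000539 by edgeR) and a change between the groups of -0.03. CDT1 shifted the other way, by -0.31 (adjusted p = 0.0199 by edgeR). What a replicate number stands for is not given in the labels, and the share of cells in S phase in each library was not measured.

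**Figure D4:**
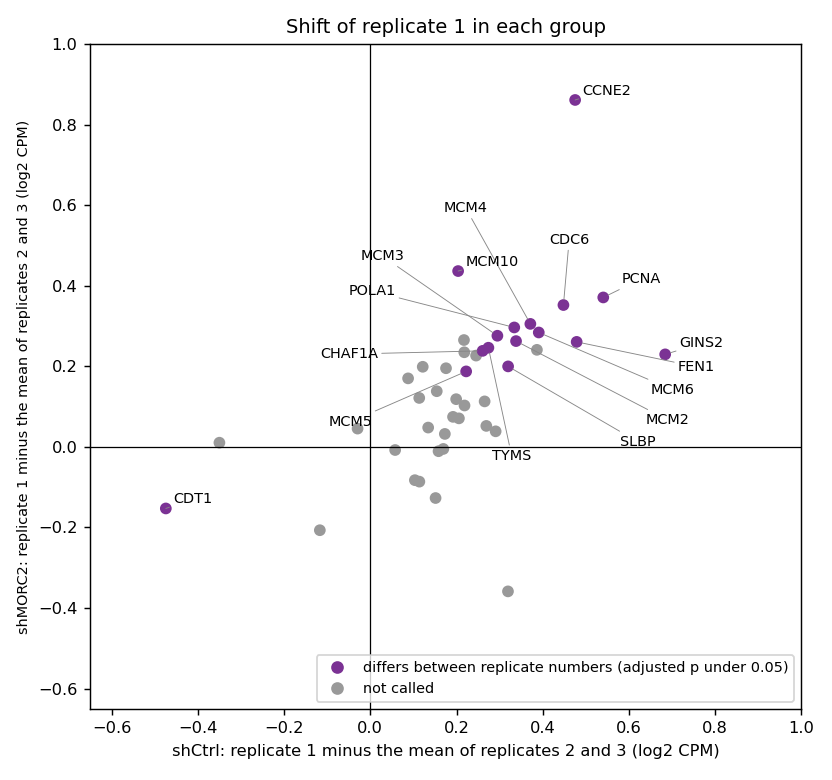
Log2 CPM of replicate 1 minus the mean of replicates 2 and 3, for shCtrl on the horizontal and shMORC2 on the vertical axis, with 1 point for each of the 44 members and purple for the 16 called in the test of replicate numbers. Most points lie above 0 on both axes, with CCNE2, PCNA and CDC6 toward the upper right and CDT1 at the lower left.

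**Figure D5:**
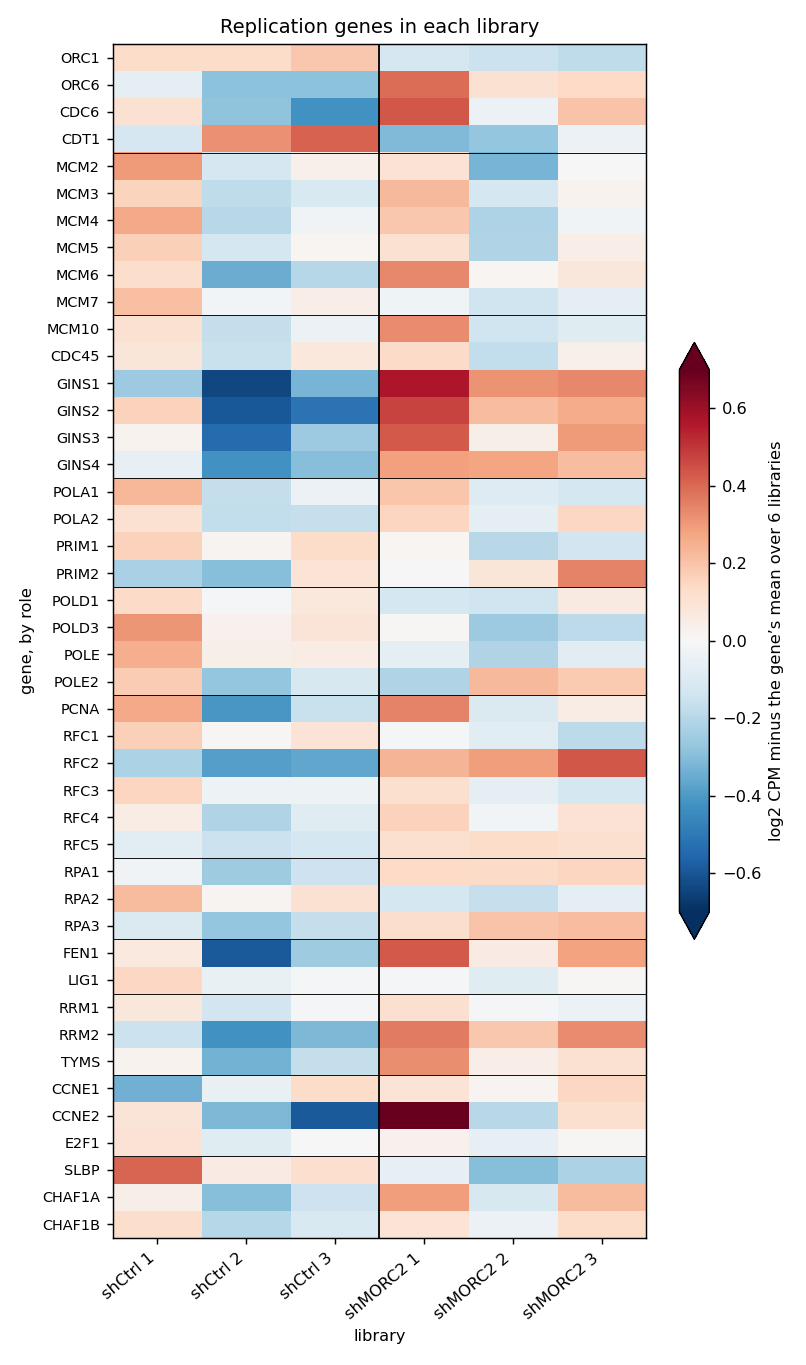
Log2 CPM of each member in each of the 6 libraries minus its mean over them, with red for above and blue for below that mean and lines between the roles. The GINS1, GINS4, RFC2 and RRM2 rows change colour between the groups, while the MCM3, MCM4 and PCNA rows are redder in replicate 1 of both groups.

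Beside the 44 members, 47 other replisome and nucleotide genes showed 4 higher and 9 lower (edgeR, adjusted p under 0.05), with a median log2 change of -0.02. Those higher made up 8.51% of the list and those lower 19.1%, against 19.9% and 19.6% of all genes. The highest were DTYMK, thymidylate kinase, at 0.71 (SE 0.0994, adjusted p = 0.000119), and RNASEH2A and RNASEH2C, subunits of the RNase H2 that removes ribonucleotides from DNA, at 0.44 and 0.37. The lowest were ATAD5, which unloads PCNA, at -0.88 (SE 0.173, adjusted p = 0.00143), CDC7, the kinase that fires origins, at -0.63, and TIMELESS, of the fork protection complex, at -0.48. With the replicate block, 11 of the 47 were higher and 13 lower, beside 24.4% and 24.5% of all genes in that fit. In unblocked fits 10 rather than 4 were higher without shCtrl replicate 1, while 5 rather than 9 were lower without shCtrl replicate 3 or without shMORC2 replicate 2. Fewer genes were called over the whole table in each of these fits.

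Among 34 further regulators of the G1/S switch, 7 rose and 7 fell, 20.6% in each direction, which is close to the 19.9% and 19.6% of all genes, and the median log2 change was 0.02. CCND2, a D-type cyclin, rose by a log2 change of 1.40 (SE 0.12, adjusted p = 2.47e-06 by edgeR), the CDK inhibitor CDKN1A by 0.89 and CDK2, the partner of the E-type cyclins, by 0.66. E2F2 had a log2 change of -0.62, LIN54, the DNA-binding subunit of the DREAM complex, of -0.55 and the CDK inhibitor CDKN1B of -0.50, all called lower. Genes of this list called lower numbered 4 rather than 7 without shCtrl replicate 3, without shMORC2 replicate 2 or without shMORC2 replicate 3. The whole table also had fewer genes called in these fits. Of 35 mitotic genes, 14.3% were higher and 31.4% lower, beside 19.9% and 19.6% of all genes. On this list 5 rose, led by SPC25, CDK1 and CDC25C at 0.54, 0.50 and 0.36, and 11 fell, led by the centromere genes CENPE and CENPA at -0.99 and -0.84 and by ECT2, needed for cytokinesis, at -0.61. The median over the mitotic genes was -0.06, and the lists were not tested against one another.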

How the data were processed

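Polyadenylated RNA from 6 SW480 libraries, 3 shCtrl and 3 shMORC2, had been sequenced from stranded libraries whose kit adds molecular identifiers. Deposited are the authors' unnormalized read counts for each gene and the RPKM values they made from them. Per the labels, the processing notes name Trimmomatic 0.36, STAR 2.5.3a, featureCounts of Subread 1.5.1, edgeR 3.12.1 and GRCh38. The annotation release, the strand setting and the use of the identifiers are not given in the sources used here, so reads of overlapping antisense genes may be mixed: 19 of the 44 members share exonic bases with another gene, 4 of them over at least 10% of their exon length with a single gene. Splicing tables hold the authors' own comparison, with their p-values, and were not used here.

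The test was edgeR's quasi-likelihood test (edgeR 4.0.16, R 4.3.3) after filterByExpr and TMM scaling. Group was its single term, p-values were adjusted by Benjamini-Hochberg over 21005 genes, and an adjusted p under 0.05 was called. The standard error is the size of the log2 fold change divided by the square root of F. CPM used TMM-scaled library sizes, and 1 CPM stood for 41.1 to 44.4 counts. On simulated data, run on 20653 genes that held 194 changed ones, the test recovered 83.2% of genes changed by 2-fold and 46.5% of those changed by 0.5 on the log2 scale, with 13 false calls among 138.

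Same-numbered libraries deviated together from their group means, with correlations of 0.333, 0.165 and 0.149 for numbers 1, 2 and 3. Libraries of unlike number gave -0.255 to 0.121, the highest for shCtrl replicate 3 with shMORC2 replicate 2. Number 1 thus stood apart, while numbers 2 and 3 were hardly told from each other. The numbers were taken to pair the libraries on these values alone. Alternatives were DESeq2 1.42.0, no TMM, other filters, limma 3.58.1 on RPKM (log2, pseudocounts of 1 and 0.1, mean of 1 RPKM or more), a replicate block, a threshold of 0.01, and leaving out libraries. The members, gene lists and named genes were chosen with earlier results of these data known. All values in each library are given for called members with a log2 fold change of at least 0.5 in size, for the most changed member of each role, and for others beside them, and the 3 highest and 3 lowest called genes are named from each further list. Promoter sequences are from RefSeq on GRCh38.p14. 1 further leukocyte marker is not reported here.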

Additional observations from a re-analysis of the deposited data

How the results depend on the processing

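The MORC2 call held in every alternative, and of the results for single genes 913 kept their direction and side of the threshold, while 101 were no longer called, 26 were newly called and 29 changed sign, none of the latter called. With the replicate block, 19 members were higher and 10 lower, and 11 other replisome genes were higher, and the block ended no call on a member. At an adjusted p under 0.01, 5302 genes were called rather than 8301, 6 members were higher and 1 lower, 5 other replisome genes were lower and 4 G1/S regulators were lower. Omitting single libraries gave 6268 to 8433 genes called, 6 to 17 members higher and 1 to 7 lower, and a member median of 0.039 to 0.20, and for the other replisome genes 3 to 10 higher and 5 to 11 lower, for the G1/S regulators 6 to 8 and 4 to 7, and for the mitotic genes 4 to 7 and 10 to 12. Omitting both libraries of number 1, 2 or 3, which was chosen once the data had been seen, gave 9230, 4373 and 4491 genes called, 16, 6 and 5 members higher and 4, 1 and 0 lower, 10, 2 and 2 other replisome genes higher and 11, 5 and 4 lower, 8, 4 and 4 G1/S regulators higher and 9, 1 and 2 lower, and 8, 2 and 2 mitotic genes higher and 13, 8 and 6 lower, with fewer libraries in each fit. Signs changed as follows, all for members that were not called. CDC45 went from 0.00 to -0.0063 without TMM, -0.0020 without the low-count filter, -0.0012 with the block, -0.0088 and -0.0096 with limma at pseudocounts of 1 and 0.1, -0.026 without number 1, and -0.076 to 0.082 with single libraries omitted. Omitting pairs of a number gave MCM10 -0.0097 and E2F1 0.021 (number 1), POLE2 -0.045 (number 2) and POLA1 0.019 (number 3). Single omissions gave -0.011 to 0.19 for MCM3, -0.14 to 0.098 for MCM4, -0.11 to 0.053 for MCM5, -0.082 to 0.17 for MCM10, -0.12 to 0.10 for POLA1, -0.12 to 0.011 for RFC3, -0.10 to 7.89e-05 for LIG1, -0.014 to 0.092 for RRM1 and -0.058 to 0.035 for E2F1. The causes of the other shifts were not tested.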

Other observations

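Partners of several members changed as well, and are named here after their values were seen. DBF4, the activating subunit of the origin-firing kinase CDC7, had a log2 change of -0.41 (SE 0.0889, adjusted p = 0.00271 by edgeR), in the same direction as CDC7 at -0.63, with every shMORC2 library below every shCtrl library for both. RBBP4, a histone-binding subunit shared by the CHAF1A and CHAF1B chaperone and by other chromatin complexes, rose by 0.49 (SE 0.0881, adjusted p = 0.000713 by edgeR), from 101 ± 8.97 CPM to 142 ± 12 CPM (SD, n = 3). CAD, which starts pyrimidine synthesis, had a log2 change of -0.39 (SE 0.0716, adjusted p = 0.000829 by edgeR), from 121 ± 2.52 CPM to 92.3 ± 4.01 CPM. Within the E2F family, E2F3 rose by 0.26 while E2F2 and E2F4 were called lower, at -0.62 and -0.20.

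The high levels of replicate 1 were also counted in the further lists. Replicate 1 was the highest library in both groups for 26 of 47 other replisome and nucleotide genes (55.3%), 11 of 34 G1/S regulators (32.4%) and 8 of 35 mitotic genes (22.9%), beside 18.8% of all genes and 70.5% of the members. The median shift of replicate 1 on the log2 scale was 0.12, 0.026 and 0.027 in these lists. The lists were not tested against one another.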
